A study of Mus musculus with 6 samples.

Results

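The nucleolus is where the cell builds ribosomes, and 40 genes of that assembly line were followed in heads of mouse embryos with and without Arid3b. The 40 were chosen by name, as factors that transcribe, modify, cut or fold ribosomal RNA, and with earlier results of these data known. They were found on the array through the RefSeq accession of each probe. Of these, 39 gave a usable signal and were tested, among 14906 genes in all, and Utp18 was too dim to test. Ribosomal RNA is copied by RNA polymerase I, chemically modified by small nucleolar ribonucleoproteins (snoRNPs), and then cut and wrapped by assembly factors into the small and large ribosomal subunits. Cells that grow and divide fast, as those of the early embryo do, need much of this machinery, and the transcription factor Myc is a known activator of many of its genes. The question followed here is whether this growth machinery is held back when Arid3b is missing.

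Wild type and Arid3b-null heads were compared at embryonic day 9.5, with 3 arrays per genotype. Arid3b is a DNA-binding protein of the AT-rich interaction domain family. Each array was hybridised with Cy3-labelled RNA from the pooled heads of 4 embryos, with the first branchial arch, the source of the jaws, left on the head. The labels give no strain, no description of the null allele and no litters for the pools, so a p-value here measures the spread between pools that may be closely related. In such bulk RNA, fewer cells of a type and less RNA per cell cannot be told apart. Values are log2 signals relative to the 75th percentile of the same array, so 0 is a fairly bright spot, and differences are null minus wild type ± limma's standard error, with 3 arrays per genotype (n = 3). A gene is said to have risen or fallen where its Benjamini-Hochberg adjusted p in limma was under 0.05, adjusted over all 14906 genes.

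Each array had 43020 spots other than controls, of which 67.9% to 70.3% stood well above background and 0 were saturated. Slides 1, 2 and 3 each carried 1 wild type and 1 null array with the same replicate number, the wild type always in position 1 and the null in position 2, so a position effect and genotype cannot be told apart. Arid3b itself read 1.98, 2.26 and 3.09 on wild type arrays 1, 2 and 3 and 1.27, 1.06 and 1.44 on the null arrays, so the groups did not overlap. Its difference was -1.19 ± 0.29 (2.28-fold lower, limma adjusted p of 0.0265), and the call was lost in 3 of the 6 fits that each left out 1 array (limma adjusted p of up to 0.0861). The labels do not place its probe relative to the deletion, so the probe may not check the genotype. Wild type array 3 stood apart from the other wild type arrays, with a limma array weight of 0.25 against 0.80 to 2.62 for the other 5. Without it the difference of Arid3b was -0.87. Calls and medians of the nucleolar genes are given with and without it below, and values of single genes mostly with it only.

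Most of the nucleolar genes were lower in the null heads, by small amounts. Of the 39 tested, 12 fell (30.8%) and 1 rose (2.56%), where 11.2% of all genes fell and 12.3% rose. The 12 that fell were Polr1e and Rrn3 of the RNA polymerase I system, Nhp2 of the snoRNPs, the nucleolar proteins Nolc1 and Ddx21, all 3 genes of the PeBoW complex (Pes1, Bop1 and Wdr12), Heatr1 of the small subunit pathway, and Nop2, Nip7 and Rrs1 of the large subunit pathway. The gene that rose was Polr1c, a subunit shared by RNA polymerases I and III. The differences ran from -1.07 to 0.59 with a median of -0.42, against a median of -0.04 over all genes. Of the 39, 29 lay below 0 (74.4%, against 53.2% of all genes). All 3 null arrays lay below all 3 wild type arrays for 18 genes (46.2%, against 21.8% of all genes) and above them for 3 (against 20.6%), and the groups overlapped for the other 18.

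Set against the wild type mean of each gene, the 39 genes had a median of -0.36, -0.46 and -0.37 on null arrays 1, 2 and 3, and of -0.02, 0.03 and -0.04 on wild type arrays 1, 2 and 3. Their median difference was -0.32, -0.51 and -0.32 within slides 1, 2 and 3, where all genes gave -0.06, -0.01 and -0.03. With slide as a block, 11 of the 39 fell (background 11.8%), and Heatr1 (limma adjusted p of 0.0593) and Polr1c (0.0514) were no longer called.

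**Figure D1:**
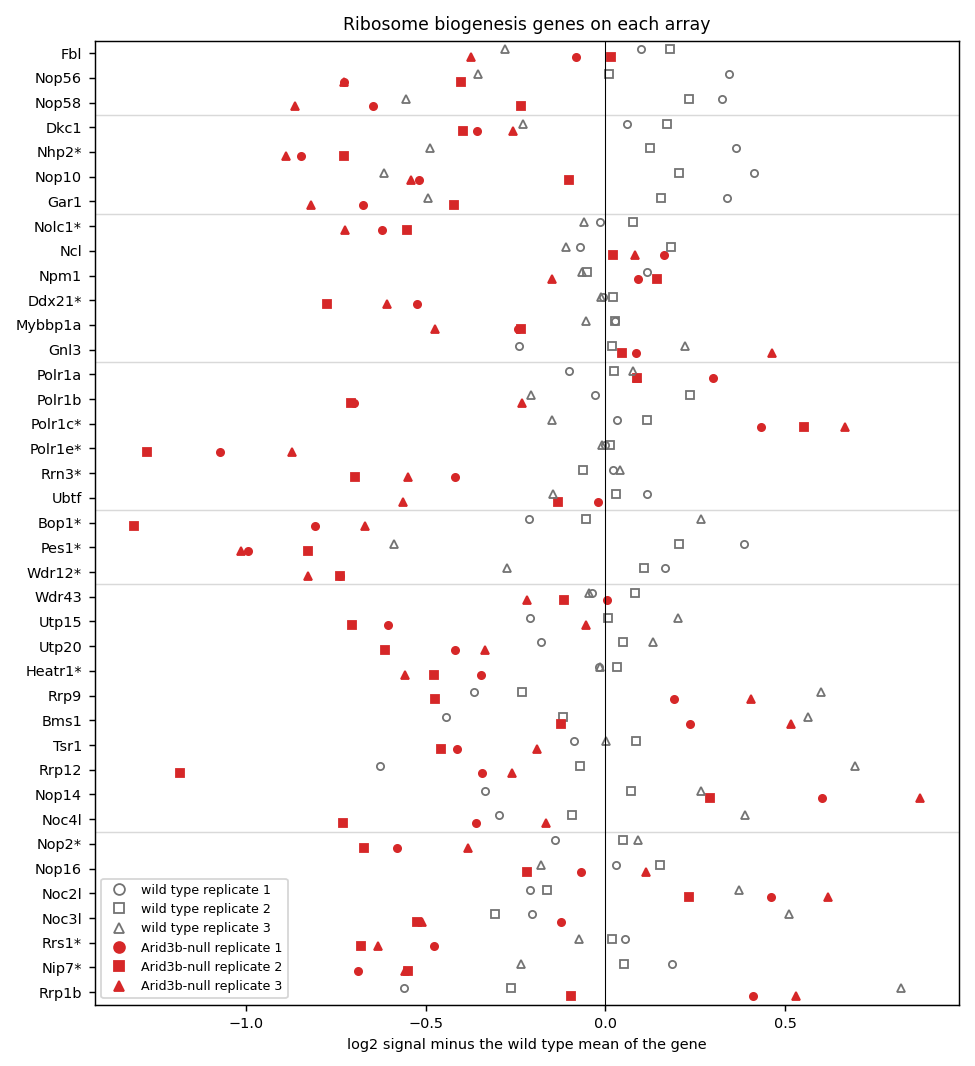
Signal of the 39 ribosome biogenesis genes on each of the 6 arrays, as log2 signal minus the wild type mean of the same gene, with grey open symbols for wild type, red filled symbols for Arid3b-null, and 1 symbol shape per replicate number. An asterisk marks genes with a limma adjusted p under 0.05 and lines part the roles; for 18 of the 39 genes the red symbols all lie left of the grey ones.

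Of the 13 calls, that of Polr1e alone held when each array was left out in turn, and the number of calls depended on which array that was. Without wild type array 1, 5 genes fell (Nolc1, Ddx21, Polr1e, Bop1 and Wdr12), when 5.92% of all genes fell, and without wild type array 2 only Polr1e did, of 39 tested, when 6.15% of all genes fell. Without null array 1, Ddx21 and Polr1e fell, when 4.29% of all genes did. Without null array 2 it was Nolc1 and Polr1e (5.57% of all genes), and without null array 3 it was Ddx21, Polr1e and Bop1 (5.28% of all genes). The shares of the 39 in the fits without wild type array 2 or any 1 of the null arrays are thus near or below those of all genes. None of the 39 rose in limma in these 5 fits, when 8.42% and 8.43% of all genes did without wild type arrays 1 and 2 and 5.88%, 6.96% and 7.21% without null arrays 1, 2 and 3. Without wild type array 3 there were more calls, with 18 lower and 3 higher (17.9% and 17% of all genes). The 13 genes called with all arrays were called again there, joined by Nop56, Nop58, Dkc1, Nop10, Gar1 and Polr1b on the lower side and Nop14 and Noc2l on the higher side. The median difference of the 39 stayed between -0.45 and -0.33 across these 6 fits.

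The promoters of Nop2, Rrn3 and Polr1e are printed to show where a Myc-type E-box, CACGTG, sits in genes that fell, and what the start of the gene with the largest fall looks like without it. Each run is the 250 bases before the annotated start, taken from the RefSeq promoter table of build GRCm38.p6, in the direction of the gene, with the E-box in capitals. Nop2 lies at chr6:125131633-125131882 on the + strand, Rrn3 at chr16:13780449-13780698 on the + strand, and Polr1e at chr4:45018359-45018608 on the + strand.
Nop2: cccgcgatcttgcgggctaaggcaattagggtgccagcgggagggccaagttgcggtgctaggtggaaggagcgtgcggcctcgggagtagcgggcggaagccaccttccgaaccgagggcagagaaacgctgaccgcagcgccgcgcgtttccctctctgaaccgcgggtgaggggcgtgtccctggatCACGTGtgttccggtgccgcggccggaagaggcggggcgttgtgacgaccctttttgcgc
Rrn3: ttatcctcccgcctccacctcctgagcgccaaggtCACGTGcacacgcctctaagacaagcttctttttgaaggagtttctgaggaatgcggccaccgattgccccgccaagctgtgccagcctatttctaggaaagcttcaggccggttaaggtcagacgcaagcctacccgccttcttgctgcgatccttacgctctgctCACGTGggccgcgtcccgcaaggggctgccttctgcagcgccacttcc
Polr1e: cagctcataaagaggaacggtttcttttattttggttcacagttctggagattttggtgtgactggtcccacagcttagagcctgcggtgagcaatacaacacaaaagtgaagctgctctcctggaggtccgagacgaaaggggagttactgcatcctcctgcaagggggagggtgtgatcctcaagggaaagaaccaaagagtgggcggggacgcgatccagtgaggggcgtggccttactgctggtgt
The single E-box of Nop2 begins 60 bases before the start, and those of Rrn3 begin 215 and 48 bases before it. Polr1e has none in its window.

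The E-box was searched as the letters CACGTG, which read the same on both strands, in windows from 250 bases before to 50 bases after the start. The table held a window for 35 of the 40 genes, leaving out Fbl, Npm1, Rrp12, Rrs1 and Bop1. At least 1 E-box stood in 8 of the 35 (22.9%), against 1316 of 11818 tested genes with a window (11.1%) and 2187 of 27025 genes in the table (8.09%). Counted by window, it was 8 of 44 (18.2%) against 7.15% of all 32851 windows. The 8 genes were Nop2, Pes1, Rrn3, Mybbp1a, Tsr1, Utp18, Utp20 and Wdr43. In Utp18 the motif begins 20 bases before the start, and in Pes1, Wdr43, Tsr1, Utp20 and Mybbp1a it begins 2, 17, 24, 37 and 40 bases after it. Nop2, Pes1 and Rrn3 are among the 10 genes that fell and have a window, so 3 of those 10 hold the motif and 5 of the other 25 do. Utp18, which was too dim to test, is counted in the 8 of 35 and in the 5 of 25. A match of letters is a description of the window and does not show that a factor binds there.

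RNA polymerase I makes the long precursor of ribosomal RNA, and 4 of its 6 genes lay below 0 (66.7%, against 53.2% of all genes). Of 6 genes, 2 fell (33.3%, against 11.2% of all genes) and 1 rose (16.7%, near the 12.3% of all genes). Their median difference was -0.39. Polr1e, which encodes the PAF53 subunit, read 1.23, 1.24 and 1.22 on the wild type arrays and 0.16, -0.04 and 0.36 on the null arrays. The wild type values nearly coincided and lay far above every null value. Polr1e fell by 1.07 ± 0.15 on the log2 scale to 47.5% of the wild type signal (2.10-fold lower, limma adjusted p of 0.00402, and 0.0106 when slide entered as a block). It differed by -1.07, -1.29 and -0.86 within slides 1, 2 and 3, and its limma adjusted p ran from 6.67e-04 to 0.0247 over 17 alternative analyses, all of which called it. A second Polr1e probe gave -1.0 ± 0.20 (limma adjusted p of 0.0174 in a fit of single probes).

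Rrn3, also called TIF-IA, carries growth signals to the polymerase and lets it start. It read 2.63, 2.55 and 2.65 in wild type and 2.19, 1.91 and 2.06 in null heads, with no overlap, a difference of -0.56 ± 0.13 (1.47-fold lower, limma adjusted p of 0.0252). Polr1c went the other way, from 3.33, 3.41 and 3.15 to 3.73, 3.85 and 3.96, a difference of 0.55 ± 0.14 (1.46-fold higher, limma adjusted p of 0.0306, and 0.0514 in the slide-blocked fit). It was the only one of the 39 to rise, and all 3 of its null values lay above its wild type values. The second largest subunit, Polr1b, read 0.97, 1.24 and 0.80 against 0.30, 0.29 and 0.77, so that wild type array 3 and null array 3 almost met, and differed by -0.55 ± 0.19 (limma adjusted p of 0.0818). The largest subunit, Polr1a, differed by 0.16 ± 0.13 (limma adjusted p of 0.432), and Ubtf, which opens the ribosomal DNA for the polymerase, by -0.24 ± 0.18 (limma adjusted p of 0.378). Neither the catalytic subunits Polr1a and Polr1b nor Ubtf passed the test. The dimmer Ubtf probe gave a larger difference, -0.75 ± 0.35, also not called (limma adjusted p of 0.180 in a fit of single probes).

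The snoRNPs guide 2 kinds of change to ribosomal RNA, and all 7 of their protein genes lay below 0, with 1 passing the test. Over all genes 53.2% lay below 0 and 11.2% fell, so 1 call among 7 is near the share of all genes. The box H/ACA particle turns uridine into pseudouridine, and its 4 genes had a median difference of -0.51. Nhp2, a core protein of that particle and of telomerase, read 5.85, 5.61 and 5.0 in wild type and 4.64, 4.76 and 4.60 in null heads. It fell by 0.82 ± 0.23 on the log2 scale (1.77-fold lower, limma adjusted p of 0.0403), with no overlap, and differed by -1.21, -0.85 and -0.40 within slides 1, 2 and 3. In slide 3 the wild type value was the lowest of its group. Gar1 read 4.53, 4.34 and 3.69 against 3.51, 3.77 and 3.37, overlapping only through wild type array 3, and differed by -0.64 ± 0.24 (limma adjusted p of 0.0981). Dkc1, the pseudouridine synthase itself, read 0.46, 0.57 and 0.17 against 0.04, 0.00 and 0.14 and differed by -0.34 ± 0.15 (limma adjusted p of 0.148). Nop10, the smallest core protein, read 3.63, 3.42 and 2.61 against 2.70, 3.12 and 2.68 and differed by -0.39 ± 0.28 (limma adjusted p of 0.365).

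The box C/D particle adds methyl groups to ribose. Limma called 0 of its 3 genes, and their median difference was -0.58. At an unadjusted limma p under 0.05, 1 was lower, as were 2837 of all 14906 genes. Nop56, a scaffold protein, read 5.40, 5.07 and 4.70 in wild type and 4.33, 4.65 and 4.33 in null heads and differed by -0.62 ± 0.21 (95% interval -1.11 to -0.13, limma adjusted p of 0.0716). The groups did not overlap, though wild type array 3 and null array 2 lay close together. On the dimmer Nop56 probe they did overlap, with a difference of -0.18 ± 0.19 (limma adjusted p of 0.563 in a fit of single probes). Nop58, the partner of Nop56, read 3.89, 3.80 and 3.02 against 2.93, 3.34 and 2.71 and differed by -0.58 ± 0.28 (limma adjusted p of 0.175). Fbl, the methyltransferase fibrillarin, read 3.1, 3.18 and 2.72 against 2.92, 3.02 and 2.63 and differed by -0.15 ± 0.18 (95% interval -0.57 to 0.28, limma adjusted p of 0.599). The values of both snoRNP classes moved with wild type array 3. On it all 7 genes read below the mean of the other 2 wild type arrays, by -0.35 to -0.92. Without it the median difference was -0.80 for box C/D and -0.79 for box H/ACA. In that fit 6 of the 7 genes were called lower, Fbl not among them, where 17.9% of all genes fell.

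Pes1, Bop1 and Wdr12 form the PeBoW complex, which is needed to mature the RNA of the large subunit, and all 3 fell (11.2% of all genes did). Their median difference, -0.93, was the lowest of the 7 roles. All null values lay below all wild type values in each of the 3, as they did for 21.8% of all genes. Bop1 read 3.48, 3.64 and 3.96 in wild type and 2.88, 2.38 and 3.02 in null heads, a difference of -0.93 ± 0.22 (1.91-fold lower, limma adjusted p of 0.0227). Wdr12 read 0.33, 0.27 and -0.11 against -0.57, -0.57 and -0.66, a difference of -0.77 ± 0.16 (1.70-fold lower, limma adjusted p of 0.0151). The null values of Wdr12 lay close together. Pes1 read 2.49, 2.31 and 1.52 against 1.11, 1.28 and 1.10, a difference of -0.95 ± 0.26 (1.93-fold lower, limma adjusted p of 0.0382). This call rests on 1 of its 2 probes. The dimmer probe read -1.73, -1.84 and -1.54 in wild type and -0.99, -1.51 and -1.10 in null heads, 0.51 ± 0.19 the other way (limma adjusted p of 0.108 in a fit of single probes), and with the probes averaged Pes1 was not called (limma adjusted p of 0.314). Over its alternatives the adjusted p of Pes1 ran from 0.00134 to 0.314.

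The next 6 genes encode abundant nucleolar proteins with several tasks, and 2 of them fell (33.3%, against 11.2% of all genes). Limma called 0 higher, and 3 of the 6 lay below 0. Nolc1, the phosphoprotein Nopp140 that chaperones snoRNPs, read 4.09, 4.19 and 4.05 in wild type and 3.49, 3.56 and 3.39 in null heads. It fell by 0.63 ± 0.13 on the log2 scale (1.55-fold lower, limma adjusted p of 0.0137), and by nearly the same amount within every slide (-0.61, -0.63 and -0.66). The dimmer Nolc1 probe gave a smaller difference, -0.38 ± 0.20, with overlapping groups (limma adjusted p of 0.226 in a fit of single probes). The RNA helicase Ddx21 read 1.64, 1.67 and 1.64 against 1.13, 0.88 and 1.04, a difference of -0.64 ± 0.13 (1.55-fold lower, limma adjusted p of 0.0146). Its other probe gave a larger fall, from 1.67, 1.83 and 1.53 to 0.46, 0.07 and 0.29, a difference of -1.41 ± 0.17 (2.65-fold lower, limma adjusted p of 0.0036 in a fit of single probes). Both probes of Ddx21 separated the genotypes without overlap.

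Npm1 and Ncl, both abundant nucleolar proteins, did not pass the test on their brightest probe. Npm1, nucleophosmin, read 7.12, 6.96 and 6.94 against 7.10, 7.15 and 6.86, a difference of 0.03 ± 0.14 (95% interval -0.30 to 0.36, limma adjusted p of 0.905), and its 4 probes gave 0.02 to 0.07. Ncl, nucleolin, read 5.63, 5.88 and 5.59 against 5.86, 5.72 and 5.78, a difference of 0.09 ± 0.14 (95% interval -0.24 to 0.42, limma adjusted p of 0.685). The 2 probes of Ncl disagree, however. The dimmer one read 0.69, 0.62 and 0.32 in wild type and -0.43, -0.65 and -0.85 in null heads, a difference of -1.19 ± 0.18 (2.28-fold lower, limma adjusted p of 0.0070 in a fit of single probes), so the direction of Ncl depends on the probe. With its probes averaged Ncl was called lower, at -0.55 (limma adjusted p of 0.0324, the lowest of its alternatives, which reached 0.910). Mybbp1a, a partner of RNA polymerase I in the nucleolus, read 5.30, 5.30 and 5.22 against 5.03, 5.04 and 4.80 without overlap and differed by -0.32 ± 0.13 (limma adjusted p of 0.126). Gnl3, nucleostemin, a GTP-binding protein of proliferating and stem cells, read 0.92, 1.18 and 1.38 against 1.25, 1.21 and 1.62 and differed by 0.20 ± 0.18 (limma adjusted p of 0.473).

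The small subunit assembly factors include the proteins of the processome that cuts the first spacer from the precursor, and 1 of 10 tested fell, no larger a share than the 11.2% of all genes. Heatr1, a large scaffold of that particle, read 3.98, 4.03 and 3.98 in wild type and 3.65, 3.52 and 3.44 in null heads. The difference was -0.46 ± 0.13 (1.38-fold lower, limma adjusted p of 0.0383, and 0.0593 in the slide-blocked fit), with no overlap. Utp20 read -0.20, 0.03 and 0.11 against -0.44, -0.63 and -0.36 and differed by -0.46 ± 0.15 (limma adjusted p of 0.0669). Tsr1, a late factor of the small subunit, read 1.24, 1.41 and 1.33 against 0.92, 0.87 and 1.14 and differed by -0.35 ± 0.14 (limma adjusted p of 0.106). Both separated the genotypes without overlap and missed the threshold. Nop14 lay on the other side, at -0.76, -0.36 and -0.16 in wild type and 0.17, -0.14 and 0.45 in null heads, a difference of 0.59 ± 0.22 (limma adjusted p of 0.0936). Utp15, Noc4l and Wdr43 differed by -0.45, -0.42 and -0.11, and Bms1 and Rrp9 by 0.21 and 0.04. Rrp12, an export factor, read -0.89, -0.33 and 0.43 against -0.61, -1.45 and -0.52 and differed by -0.60 ± 0.38 (limma adjusted p of 0.30). In Rrp12 the spread within each genotype was about as large as the difference. Utp18 was well above background on 1 of 6 arrays and has no test.

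Large subunit assembly genes gave 3 falls of nearly equal size among 7 (42.9%, against 11.2% of all genes). Rrs1, which helps bring the small 5S RNA into the large subunit, read 2.03, 2.0 and 1.91 in wild type and 1.5, 1.30 and 1.35 in null heads, a difference of -0.60 ± 0.13 (1.51-fold lower, limma adjusted p of 0.0177). Nip7 read 3.53, 3.40 and 3.11 against 2.65, 2.79 and 2.79, a difference of -0.60 ± 0.15 (1.52-fold lower, limma adjusted p of 0.0310), and its other probe gave -0.42 (limma adjusted p of 0.0854 in a fit of single probes). Nop2, an RNA methyltransferase also known as the proliferation antigen p120, read 4.15, 4.34 and 4.39 against 3.71, 3.62 and 3.91, a difference of -0.55 ± 0.14 (1.46-fold lower, limma adjusted p of 0.0338). In these 3 genes all null arrays lay below all wild type arrays, as they did for 21.8% of all genes. Noc2l read 3.36, 3.41 and 3.94 against 4.03, 3.80 and 4.19 and differed by 0.44 ± 0.20 (limma adjusted p of 0.160). Its wild type array 3 lay inside the null range. Noc3l, Nop16 and Rrp1b differed by -0.39, -0.06 and 0.28, with limma adjusted p of 0.299, 0.821 and 0.620.

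**Figure D2:**
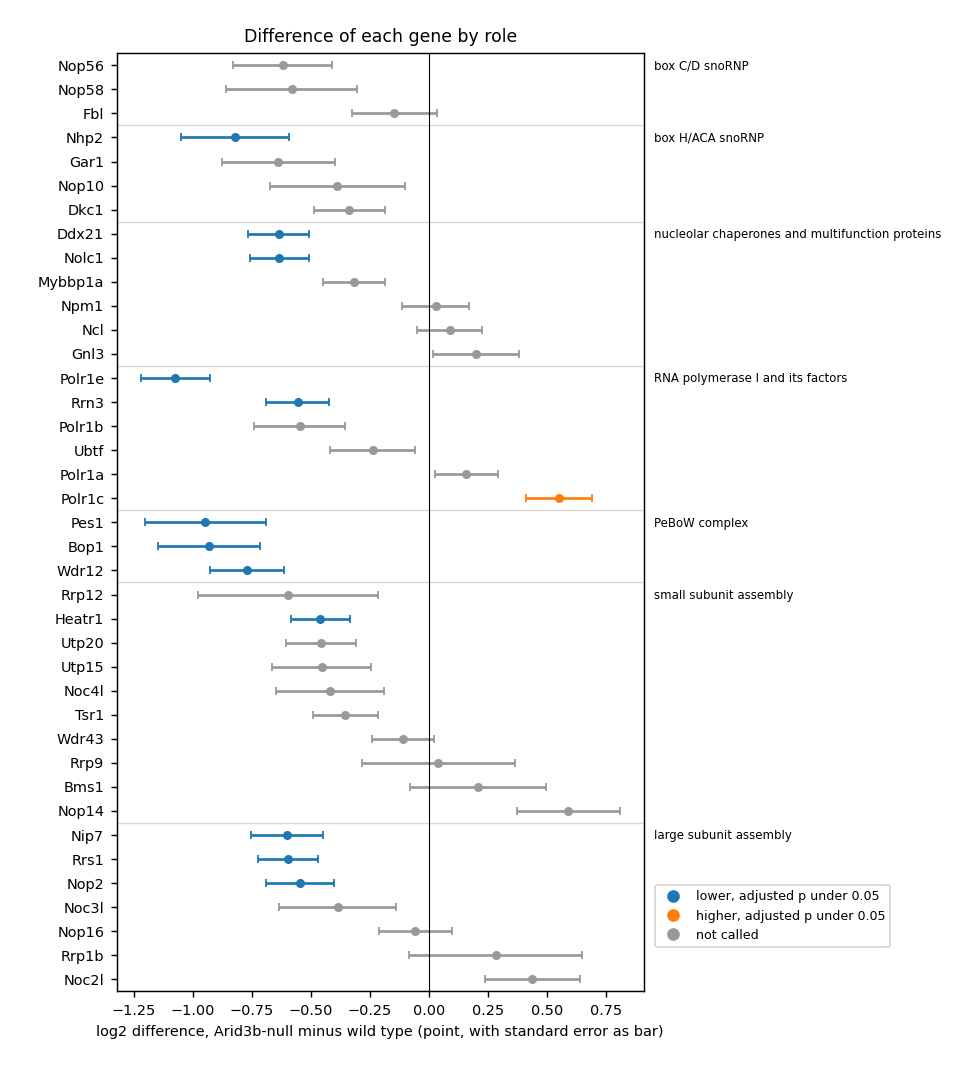
Difference of each of the 39 genes, null minus wild type on the log2 scale (point) with its limma standard error (bar), grouped by role and ordered by size within a role. Blue genes fell, the orange gene rose and grey genes were not called; Polr1e lies farthest left at -1.07, and the 3 PeBoW genes lie between -0.95 and -0.77.

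Among the 39 genes, wild type array 3 was the lowest wild type array for 22 and the highest for 15 (94.9% together, against 83.6% of all genes). It lay over 0.5 log2 units from the mean of the other 2 for 13 genes (33.3%, against 32.4% of all genes). It read low for all 7 snoRNP genes, as given above, and its side differed between other roles. It was the lowest wild type array for 3 and the highest for 4 of the large subunit genes. Among 10 small subunit genes it was the lowest for 1 and the highest for 7. Among the 6 genes of abundant nucleolar proteins with several tasks it was the lowest for 5 and the highest for 1. The genes it exceeded most were Rrp1b, Rrp12, Rrp9, Bms1 and Noc3l, by 1.24, 1.04, 0.90, 0.85 and 0.77. Leaving it out brought the median difference of large subunit genes from -0.39 to -0.15 and that of small subunit genes from -0.39 to -0.24, while the PeBoW median moved from -0.93 to -0.91. The median for all 39 became -0.35.

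Of the 39 genes, 11 had more than 1 usable probe, with 13 further probes in all. Of these, 11 had the sign of the brightest probe, and those of Ncl and Pes1 had the opposite one. In a fit of single probes 3 of the 13 fell (Ddx21, Ncl and Polr1e), where 8.58% of all probes fell, and 0 rose in limma. All 52 probes of these genes that were used were well above background on all 6 arrays, so background does not set a bound on any of the differences given.

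Further genes of the pathway also lay mostly below 0 in null heads. A further 4 lists held 132 genes, for other assembly factors of the small and large subunit, other RNA polymerase I subunits and factors, and the RNA-cutting enzymes RNase P, RNase MRP and the exosome. Of the 130 measured, 25 fell (19.2%) and 1 rose, the median difference was -0.32, and 105 lay below 0 (80.8%), where 11.2% of all genes fell, 12.3% rose and 53.2% lay below 0. With slide as a block 25 fell and 2 rose. As for the 39, the count turned on the arrays used: leaving out 1 array gave 7 to 53 falls, with 13, 10 and 53 without wild type arrays 1, 2 and 3 and 7, 9 and 12 without null arrays 1, 2 and 3. Over all genes the same fits called 639 to 2663 of 14906 lower.

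Of 46 other small subunit factors 9 fell (19.6%, against 11.2% of all genes), with a median of -0.30. Bysl, a late factor of that subunit, read 3.1, 3.19 and 2.85 in wild type and 2.05, 2.03 and 2.11 in null heads, well apart. It fell by 0.98 ± 0.14 on the log2 scale (1.98-fold lower, limma adjusted p of 0.00452). Nop9, Pno1 and Ltv1 differed by -0.85 ± 0.12, -0.86 ± 0.18 and -0.74 ± 0.14, with limma adjusted p of 0.00488, 0.0150 and 0.0104. Of 49 other large subunit factors 9 fell (18.4%), with a median of -0.31. Rsl24d1, a placeholder for a ribosomal protein in the nascent large subunit, read 0.48, 0.40 and 0.19 against -0.94, -0.42 and -0.76 and fell by 1.06 ± 0.18 (2.08-fold lower, limma adjusted p of 0.00727). Ccdc86, Lsg1 and Ddx31 differed by -0.82 ± 0.16, -0.67 ± 0.12 and -0.60 ± 0.12, with limma adjusted p of 0.0138, 0.0104 and 0.0131.

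Polr2l, a small subunit common to RNA polymerases I, II and III, had the lowest difference among the 4 lists. It read 6.03, 5.75 and 5.54 in wild type and 4.43, 4.60 and 4.18 in null heads, so the groups lay far apart. Polr2l fell by 1.37 ± 0.18 (2.58-fold lower, limma adjusted p of 0.00381). Of the 14 other RNA polymerase I genes 2 fell (14.3%, near the 11.2% of all genes), Polr2l and Taf1a (-0.65 ± 0.17, limma adjusted p of 0.0327), a member of the promoter selectivity factor. Of 11 subunits of RNA polymerase III, which makes 5S and transfer RNA, 2 fell (18.2%), Polr3k (-0.97 ± 0.15, limma adjusted p of 0.00619) and Crcp (-0.70 ± 0.13, limma adjusted p of 0.0116), and the median was -0.15. Among 21 genes of RNase P, RNase MRP and the exosome 5 fell (23.8%) and 1 rose, with a median of -0.35. Without wild type array 3 the median was -0.58 for these 21 genes, -0.45 for the 14 other RNA polymerase I genes and -0.06 for RNA polymerase III. The exosome subunit Exosc6 fell by 0.97 ± 0.13 (1.96-fold lower, limma adjusted p of 0.00413). Rpp25, a protein of RNase P and MRP, rose from -4.69, -3.56 and -3.63 to -1.94, -2.50 and -2.04, a difference of 1.80 ± 0.32 (3.48-fold higher, limma adjusted p of 0.00994).

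The ribosomal proteins themselves were not lower as a group. Of 77 measured genes of the cytosolic ribosome, limma called 0 lower (11.2% of all genes were) and 1 higher (12.3% of all genes were). At an unadjusted limma p under 0.05, 0 were lower, where 2837 of all 14906 genes were. The groups overlapped for 72 of the 77 (93.5%, against 57.6% of all genes), 29 lay below 0 (37.7%, against 53.2%), and the median was 0.04, turning to -0.08 without wild type array 3 and to -0.23 within slide 1. Rpl3 rose from 6.99, 6.98 and 6.91 to 7.33, 7.44 and 7.36, a difference of 0.41 ± 0.12 (1.33-fold higher, limma adjusted p of 0.0472, and 0.0724 in the slide-blocked fit). Rpl5, Rpl21 and Rps3a1 differed by 0.43, -0.50 and 0.30 and did not pass the test. Wild type array 3 was the lowest wild type array for 74 of the 77. Probes for ribosomal proteins may also bind RNA of near-identical pseudogenes, so single values there are uncertain.

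**Figure D3:**
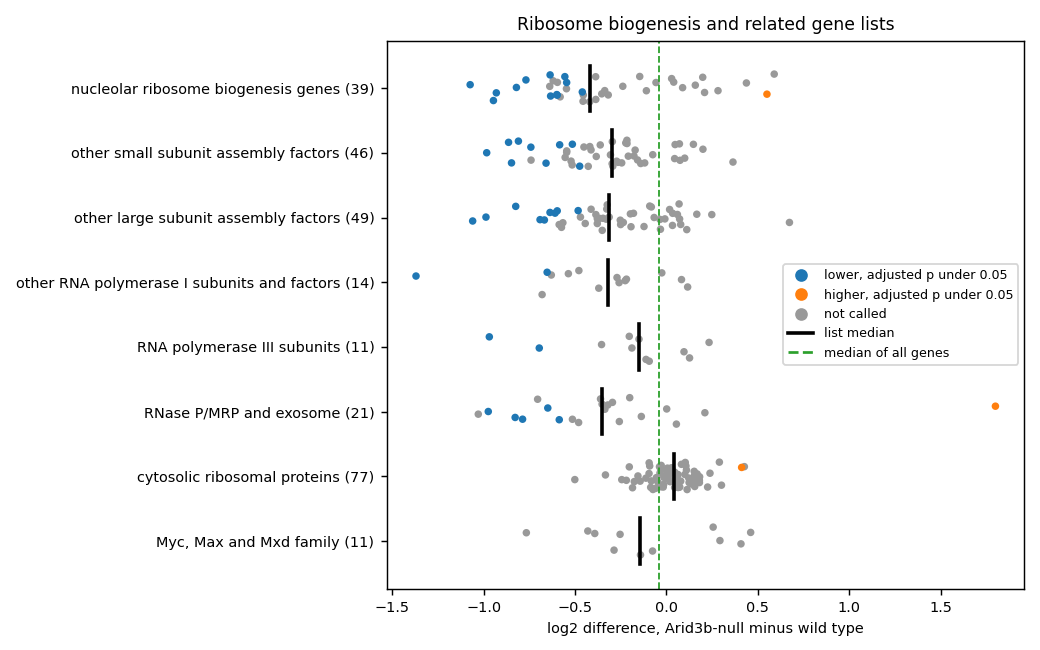
Log2 difference, null minus wild type, of each gene in the 39 nucleolar genes and in 7 further lists, with the number of measured genes in brackets, a black bar at the list median and a green dashed line at the median of all genes (-0.04). Blue genes fell and orange genes rose; the 39 nucleolar genes have a median of -0.42 and the 77 ribosomal protein genes one of 0.04.

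Myc and its relatives, which bind the E-box, were looked at as regulators of this pathway. Limma called 0 of 11 measured genes of the Myc, Max and Mxd family (11.2% of all genes fell and 12.3% rose), and their median was -0.14. At an unadjusted limma p under 0.05, 2 were lower and 1 higher, where 2837 and 2768 of all 14906 genes were. Myc read -0.11, -0.07 and -0.40 in wild type and -0.56, -0.59 and -0.72 in null heads, a difference of -0.43 ± 0.14 (limma adjusted p of 0.0730). Its groups did not overlap, with null below wild type, as for 21.8% of all genes. Mycn, the form prominent in neural progenitors, read 2.55, 2.37 and 2.34 against 2.66, 2.68 and 2.69, a difference of 0.26 ± 0.13 (limma adjusted p of 0.189). Its groups did not overlap either, with null above wild type, as for 20.6% of all genes. Mlxip and Mnt differed by -0.77 and 0.41, with limma adjusted p of 0.0735 and 0.0776.

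The cell types of the pools were read from marker lists, as signal summed over each list in multiples of the 75th percentile. Over all genes 11.2% fell, 12.3% rose and 53.2% lay below 0. Of 8 neural tube and head markers Otx2 (0.57) and Lmx1b (0.56) rose (25%) and Sox1 (-0.68) fell (12.5%, near the share of all genes). Lmx1b lost its call in the slide-blocked fit (limma adjusted p of 0.0688, against 0.0464). The sum of these markers was 27.1 to 31.9 in wild type and 32.3 to 36.5 in null heads. Of 8 first arch and mesenchyme markers Barx1 (-2.34), Dlx2 (-1.13) and Prrx1 (-0.85) fell, but only 4 of the 8 lay below 0 and the list median was 0.004. Their sums were 8.94 to 13.0 in wild type and 8.89 to 10.4 in null heads. All 5 neuron markers lay below 0, Elavl3 (-1.27) and Dcx (-0.75) fell, and the sums did not overlap, at 7.37 to 9.89 in wild type and 4.72 to 5.82 in null heads. Klf1 (-1.04), of the red cell list, and Tyrobp (-1.35), of the white blood cell list, fell as well, and all 3 white blood cell markers measured lay below 0. Of the 7 red cell markers 4 lay below 0, with a median of -0.07. Of the 6 surface ectoderm markers 1 lay below 0, with a median of 0.42. Of the 6 heart markers measured 5 lay below 0, with a median of -0.32. Of the 6 endothelium markers 3 lay below 0, with a median of -0.08. Sums overlapped for red cells (532 to 734 against 419 to 850), endothelium (9.44 to 14.2 against 8.70 to 10.3), surface ectoderm (17.8 to 43.2 against 31.3 to 31.8), heart (1.34 to 5.07 against 1.82 to 2.13) and white blood cells (1.45 to 3.24 against 1.42 to 2.42). The heart list was measured for 6 of 7 genes, without Myl7, and the white blood cell list for 3 of 5, without Ptprc and Spi1. The part of these shifts in the nucleolar differences was not tested.

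The number of nucleolar genes called varied with the analysis more than their direction did. The 39 gave 12 falls with median centring or with probes well above background on all 6 arrays, where 10.5% and 11.5% of all genes fell. Quantile normalization gave 8 falls (9.96% of all genes) and normexp background correction 10 (10.4%). With dim probes kept in, 5 of 40 fell (5.16% of all genes), and when arrays were weighted by quality 22 of 39 did (23.2%). The authors' deposited log2 value table holds 32 of the genes and gave 6 falls (10.6% of all its genes). The median difference lay between -0.44 and -0.30 in the analyses that kept all 6 arrays.

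**Figure D4:**
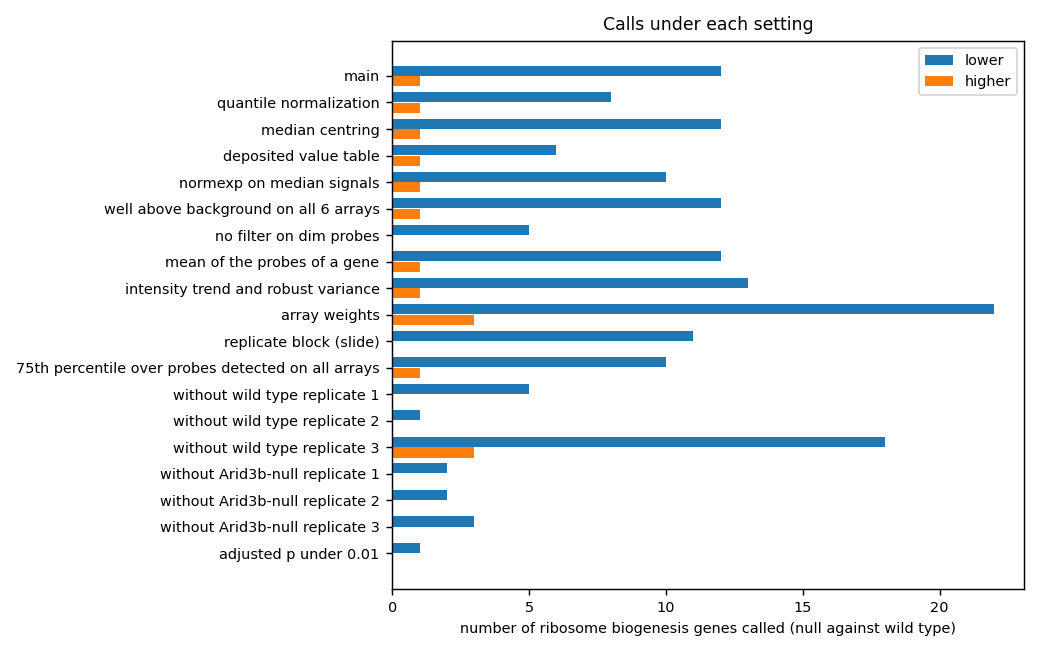
Number of the 39 nucleolar genes (40 without the filter on dim probes, 32 in the deposited value table) called lower (blue) or higher (orange) in null heads in the main analysis and in each alternative. The count of falls runs from 1 to 22 and is above the count of rises in every one shown.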

How the data were processed

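Per the labels' protocols, amplified Cy3-labelled RNA was put on one-colour Agilent arrays, which were read with Feature Extraction 10.7.3.1. The deposited scanner files hold 1 background-subtracted intensity per spot (the processed signal), median intensities and flags, per the file headers. The authors' deposited value table holds log2 values whose exact scaling stays unknown (column medians 6.76 to 6.77, correlation of 0.999 or more with the scanner log2 signals across probes).

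Here log2 of the processed signal minus its 75th percentile over the array was used, without control spots and the 84 to 156 outlier-flagged spots per array. Of 39429 probes, 26424 were named with 1 symbol through the RefSeq accession of the probe (table of GRCm38.p6), 0 with several and 13005 with none. A probe was kept if it stood well above background on every array of 1 genotype and had a value on 5 arrays or more (26288 probes), and the brightest probe stood for each of 14906 genes. The test was limma 3.58.1 (lmFit and eBayes, R 4.3.3), and the same fit was also run on simulated data. The 40 genes, the other lists and the analyses were chosen with earlier results of these data known. Values on every array are given for up to 4 genes per role with the smallest p, for genes called against the majority direction, and for others where they help; up to 4 genes with the smallest p are named in other lists. Alternatives were other normalizations, background correction, filters, probe rules, variance models, slide as a block, a stricter threshold and leaving out each array. Normexp used median signals.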

Additional observations from a re-analysis of the deposited data

How the results depend on the processing

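Over all genes, 3506 were called with the settings of the report. The number of calls, and the number among the 39 nucleolar genes, depended on the setting; the cause was not tested. The median difference of the nucleolar genes was -0.33 with quantile normalization, -0.30 with normexp and -0.35 with the 75th percentile taken over probes detected on all arrays, an alternative chosen after seeing the data. The deposited table called 7 of 32 nucleolar genes, 6 lower. Without a filter on dim probes 2270 genes were called (1034 lower), 5 of the nucleolar genes (5 lower, 0 higher in limma) and 13 of the 4 related lists lower. Array weights called 6685 genes (3231 higher, 3454 lower), 25 nucleolar genes (22 lower, 3 higher) and 62 of the related lists lower. At an adjusted p under 0.01 there were 1272 calls (756 higher, 516 lower), 1 nucleolar gene (1 lower, 0 higher) and 5 in the related lists. Leaving out 1 array gave 1516 to 5199 calls (877 to 2536 higher, 639 to 2663 lower), 1 to 21 nucleolar genes (1 to 18 lower, 0 to 3 higher), a median of -0.45 to -0.33, and 7 to 53 related genes lower. The replicate block, which is the slide, called 11 nucleolar genes lower and 0 higher in limma. Deviations from the group means of same-numbered arrays correlated at -0.20, 0.15 and 0.42. With 3 arrays per genotype these values cannot decide whether arrays of the same slide are paired. The main fit took no pairing, and the slide block is given as an alternative. Small differences changed sign: Fbl was 0.018 with normexp, Npm1 -0.038 with quantile normalization and -0.051 with normexp, Ncl -0.55 with its probes averaged, Nop16 0.017 with quantile normalization, 0.016 in the deposited table and 0.010 with the percentile over detected probes, and Mxd4, of the Myc list, -0.47 in the deposited table. Leaving out 1 array gave -0.028 to 0.12 for Npm1, -0.14 to 0.34 for Rrp9, -0.013 to 0.49 for Bms1 and -0.15 to 0.023 for Nop16. Only 6 arrays were measured, which limits the precision of every value; a difference that missed the threshold is not shown to be absent.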
